A study of Mus musculus with 9 samples.

Results

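B cell genes and the germinal centre regulator *Bcl6* were examined in whole lung RNA of mice given interleukin-33 (IL-33), an alarmin cytokine that signals through the adaptor MyD88. The set holds 8 of the 34638 genes in the deposited table: *Cd79a*, *Cd79b*, *Cr2*, *Blk*, *Ms4a1*, *Pax5*, *Tnfrsf13c* and *Bcl6*. It was chosen by gene name, with earlier results of these data known. RNA-seq was made from the lungs of 9 wild-type C57BL/6 mice, 3 in each of 3 groups. PBS mice were controls given sterile PBS on days 0, 1, 2 and 3, and IL-33 mice were given 0.5 µg IL-33 into the trachea on those days. IL-33+LM8 mice were given the same IL-33 after an intraperitoneal injection of LM8, a MyD88 inhibitor, at 10 mg/kg. No injection is named for the other groups, and neither a group given the LM8 vehicle nor one given LM8 alone is among the samples. The study's methods give PBS and IL-33 mice as female, 6 to 8 weeks old and sampled on day 4. For IL-33+LM8 mice these details are not given in the sources used here. Total counts were between 53877663 and 90607218 per mouse.

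B cells are antibody-forming lymphocytes that carry a B cell receptor, a membrane antibody held by the signalling chains CD79A and CD79B. Their identity is held by the transcription factor PAX5, and the mature cells depend on the cytokine BAFF, which they read through the receptor encoded by *Tnfrsf13c*. In a germinal centre, a site inside a lymphoid follicle where activated B cells mutate and select their receptors, the repressor BCL6 is required in B cells and in follicular helper T cells. The healthy lung holds few lymphoid follicles, but they can form in inflamed airways. *Bcl6* is also expressed outside the B lineage, including in myeloid and tissue cells.

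The B cell part of the set's name was matched by the level of further B cell genes, and the germinal centre part only in part. All 19 further listed genes of the B cell receptor and its co-receptors passed the level filter. With IL-33, 17 of them were called higher and 2 lower, against 27.4% and 27.2% of all genes tested. Such a rise does not name a cell type, as 5 of 6 macrophage markers also rose. *Fcer2a*, a B cell surface receptor outside the set, was read in every mouse, between 504 and 2204 counts. Of 10 germinal centre genes listed besides *Bcl6*, 4 fell below the level filter and 6 passed it. These 6 did not move as one, as 3 rose and 2 fell with IL-33. *Gcsam*, among the 6, had between 159 and 403 counts per mouse. *Rgs13*, a regulator of chemokine signalling in germinal centre B cells, had between 0 and 12 counts per mouse. The 8 genes are therefore called B cell genes and *Bcl6* below. Lung identity was plain, with *Sftpc*, the alveolar surfactant protein C gene, at 4879 FPKM or above in every mouse.

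Promoter sequence from RefSeq was at hand for 5 of the 8 genes. Each is 300 bases long, from 250 bases before the start of transcription to 50 after, on build GRCm38.p6. All but that of *Pax5* are printed, 5′ to 3′ on the gene's strand. Capitals mark matches to a searched motif. The first 3 printed each hold CAGGTG, a motif of E2A, a transcription factor of early B cells, with the *Cr2* match on the opposite strand. *Pax5* rose with IL-33 as these genes did, and its promoter holds no match. The 2 promoters of *Bcl6* hold no CAGGTG and carry matches to the STAT motif TTCNNNGAA. Whether these motifs bear on the levels was not tested.

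Cd79a, chr7:24897247-24897546, plus strand: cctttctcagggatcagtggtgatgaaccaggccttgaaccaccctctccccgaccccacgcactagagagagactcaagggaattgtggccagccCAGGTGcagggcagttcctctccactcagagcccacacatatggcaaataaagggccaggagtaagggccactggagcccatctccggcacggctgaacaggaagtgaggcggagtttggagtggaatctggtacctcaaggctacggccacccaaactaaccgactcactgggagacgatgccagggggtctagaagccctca
Cr2, chr1:195176670-195176969, minus strand: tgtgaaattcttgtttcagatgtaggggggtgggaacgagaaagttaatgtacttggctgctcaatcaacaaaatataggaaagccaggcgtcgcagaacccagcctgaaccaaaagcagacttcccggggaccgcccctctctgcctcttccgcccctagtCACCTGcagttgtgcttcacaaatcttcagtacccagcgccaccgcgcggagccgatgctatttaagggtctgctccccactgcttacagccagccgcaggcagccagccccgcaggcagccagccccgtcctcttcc
Tnfrsf13c, chr15:82224331-82224630, minus strand: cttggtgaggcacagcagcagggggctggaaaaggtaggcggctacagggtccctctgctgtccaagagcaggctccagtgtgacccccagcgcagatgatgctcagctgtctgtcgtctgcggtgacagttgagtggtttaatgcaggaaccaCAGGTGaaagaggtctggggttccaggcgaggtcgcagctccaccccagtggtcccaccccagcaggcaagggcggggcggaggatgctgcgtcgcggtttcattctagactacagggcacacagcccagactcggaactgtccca
Bcl6 first promoter, chr16:23988803-23989102, minus strand: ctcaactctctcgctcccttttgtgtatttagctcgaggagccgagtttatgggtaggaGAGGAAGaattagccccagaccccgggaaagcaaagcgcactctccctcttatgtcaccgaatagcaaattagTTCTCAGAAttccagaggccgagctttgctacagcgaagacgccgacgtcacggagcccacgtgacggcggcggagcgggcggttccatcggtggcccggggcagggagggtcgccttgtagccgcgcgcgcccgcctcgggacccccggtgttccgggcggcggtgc
Bcl6 second promoter, chr16:23981234-23981533, minus strand: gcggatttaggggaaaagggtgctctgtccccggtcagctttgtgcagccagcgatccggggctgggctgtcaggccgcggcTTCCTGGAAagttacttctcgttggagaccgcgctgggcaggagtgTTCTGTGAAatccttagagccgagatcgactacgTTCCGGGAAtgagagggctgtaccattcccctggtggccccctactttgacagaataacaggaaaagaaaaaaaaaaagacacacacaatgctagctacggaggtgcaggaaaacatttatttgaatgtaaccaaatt

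Counted from the start of transcription, the CAGGTG match lies at -154 to -149 in *Cd79a*, -96 to -91 in *Tnfrsf13c* and -88 to -83 in *Cr2*. The promoter of *Pax5* had no match to any of the 6 motifs searched, so 3 of the 4 promoters outside *Bcl6* held CAGGTG, against 20.2% of all 32851 promoters in the RefSeq table. The first *Bcl6* promoter had 1 STAT match at -118 to -110 and 1 match to GAGGAAG, the PU.1 motif, at -191 to -185. The second had 3 STAT matches, at -168 to -160, -122 to -114 and -88 to -80. TTCNNNGAA was present in 8.3% and GAGGAAG in 13.6% of all promoters. The octamer ATGCAAAT, the EBF motif CCCNNGGG and the NF-kB motif GGGNNTTCC were found in none of the 6 promoters, against 1.74%, 13.7% and 5.82% of all. Both strands were searched and no matches overlapped. A match describes letters in this window and is not a binding site.

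In IL-33 mice, 7 of the 8 genes rose against PBS, by 2.89 to 5.54-fold in mean FPKM, and *Bcl6* fell. In IL-33+LM8 mice the same 7 fell against IL-33 and *Bcl6* rose, and 6 of the 7 were called above PBS. Of these 6, *Tnfrsf13c* lost that call when any single IL-33+LM8 mouse was left out and under other settings. FPKM is the authors' level per transcript length and sequencing depth, so it can be compared between genes. Fold changes on the log2 scale, their standard errors (SE) and adjusted p-values come from edgeR's quasi-likelihood test on the deposited counts with Benjamini-Hochberg adjustment over all genes tested, and a gene was called changed at an adjusted p under 0.05. Each comparison had 3 mice against 3, for which the smallest exact permutation p for a single gene is 0.1. In RNA of whole lung, fewer cells of a type and less RNA per cell cannot be told apart.

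**Figure D1:**
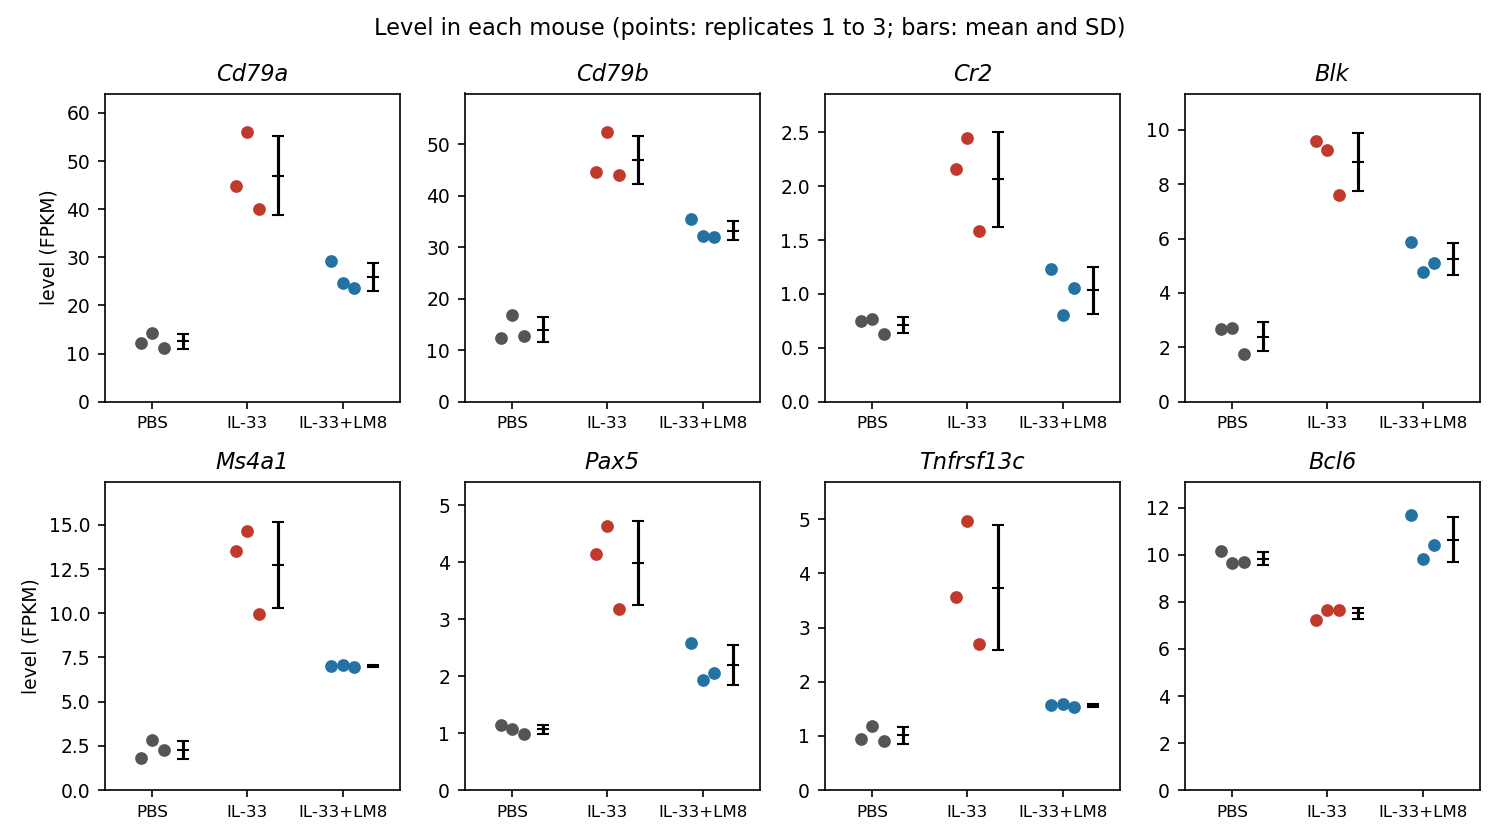
Level of each of the 8 genes in FPKM (vertical axis, starting at 0) in PBS, IL-33 and IL-33+LM8 mice; points are single mice in the order replicate 1 to 3, and the bar beside them is the mean and SD of the 3. For 7 genes the IL-33 mice stand above both other groups, while for Bcl6 they stand below, between 7.247 and 7.66 FPKM.

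The signalling chains of the B cell receptor were the most abundant of the B cell genes. *Cd79a* (ENSMUSG00000003379, chromosome 7, 24596806 to 24601622 by the table's own coordinates, as for the genes that follow) was at 12.14, 14.17 and 11.22 FPKM in PBS mice, 44.89, 55.96 and 40.03 in IL-33 mice, and 29.16, 24.75 and 23.72 in IL-33+LM8 mice. The 3 groups stood fully apart, with IL-33+LM8 between the others. The means were 12.5 ± 1.5, 47.0 ± 8.2 and 25.9 ± 2.9 FPKM (SD, n = 3). *Cd79a* rose in IL-33 against PBS by a log2 fold change of 1.91 (SE 0.145, edgeR adjusted p = 3.9e-05). With LM8 it fell by 0.86 on the log2 scale against IL-33 (SE 0.135, edgeR adjusted p = 0.0033), or 1.81-fold in mean FPKM. It stayed 2.07-fold above PBS, with a log2 fold change of 1.06 (SE 0.12, edgeR adjusted p = 0.00095).

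*Cd79b* (ENSMUSG00000040592, chromosome 11, 106202167 to 106205588), the partner chain, was at 12.38, 16.79 and 12.83 FPKM in PBS mice, 44.56, 52.37 and 44.06 in IL-33 mice, and 35.45, 32.23 and 32.02 in IL-33+LM8 mice. Its groups did not overlap either, but IL-33+LM8 mice lay nearer to IL-33 mice than they did for *Cd79a*. The log2 fold change was 1.75 in IL-33 against PBS (SE 0.134, edgeR adjusted p = 4e-05) and 1.26 in IL-33+LM8 against PBS (SE 0.124, edgeR adjusted p = 0.00052). Between the IL-33 groups it fell by 0.50 on the log2 scale (SE 0.0857, edgeR adjusted p = 0.0049), the smallest of the 7 falls.

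*Cr2* (ENSMUSG00000026616, chromosome 1, 194819119 to 194859024) encodes complement receptors 2 and 1, which lower the threshold of the B cell receptor and are also carried by follicular dendritic cells. It was the lowest of the 8 genes in every group, at 0.75, 0.7647 and 0.6254 FPKM in PBS, 2.162, 2.45 and 1.582 in IL-33, and 1.236, 0.8074 and 1.056 in IL-33+LM8 mice. The lowest IL-33+LM8 mouse, replicate 2, lay just above the highest PBS mouse. *Cr2* rose by 1.52 in IL-33 against PBS (log2, SE 0.182, edgeR adjusted p = 0.00035) and fell by 0.99 on the log2 scale with LM8 against IL-33 (SE 0.203, edgeR adjusted p = 0.01). Against PBS, IL-33+LM8 mice differed by a log2 fold change of 0.55 (95% confidence interval 0.111 to 0.981), with an edgeR adjusted p of 0.063 that missed the threshold. Without IL-33+LM8 replicate 2 the log2 fold change was 0.694 and the adjusted p 0.031, and DESeq2 gave 0.026 with all 6 mice.

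*Blk* (ENSMUSG00000014453, chromosome 14, 63610285 to 63654486), a Src-family kinase downstream of the B cell receptor, was at 2.681, 2.701 and 1.764 FPKM in PBS, 9.604, 9.264 and 7.593 in IL-33, and 5.879, 4.761 and 5.093 in IL-33+LM8 mice. No group overlapped another. The log2 fold changes were 1.89 in IL-33 against PBS (SE 0.191, edgeR adjusted p = 0.00015), -0.75 in IL-33+LM8 against IL-33 (SE 0.119, edgeR adjusted p = 0.0035) and 1.15 in IL-33+LM8 against PBS (SE 0.193, edgeR adjusted p = 0.0049).

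*Ms4a1* (ENSMUSG00000024673, chromosome 19, 11227039 to 11243605), which encodes the B cell surface protein CD20, had the largest rise of the 8. It was at 1.807, 2.821 and 2.254 FPKM in PBS, 13.53, 14.66 and 9.97 in IL-33, and 7.009, 7.053 and 6.981 in IL-33+LM8 mice. The IL-33+LM8 mice were nearly level with each other, with an SD of 0.0363 FPKM against 2.45 in IL-33 mice. *Ms4a1* rose 5.54-fold in mean FPKM with IL-33 (log2 fold change 2.47, SE 0.198, edgeR adjusted p = 5e-05). It fell by 0.86 on the log2 scale with LM8 (SE 0.131, edgeR adjusted p = 0.003) and stayed 3.06-fold above PBS (log2 fold change 1.63, SE 0.15, edgeR adjusted p = 0.0004).

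*Pax5* (ENSMUSG00000014030, chromosome 4, 44524757 to 44710487), the transcription factor of B cell commitment, was at 1.147, 1.079 and 0.9896 FPKM in PBS, 4.155, 4.638 and 3.187 in IL-33, and 2.59, 1.935 and 2.052 in IL-33+LM8 mice. Its groups stood apart in the order of *Cd79a*. The log2 fold changes were 1.89 (SE 0.149, edgeR adjusted p = 4.6e-05) with IL-33, -0.86 (SE 0.16, edgeR adjusted p = 0.0068) between the IL-33 groups and 1.04 (SE 0.138, edgeR adjusted p = 0.0018) for IL-33+LM8 against PBS. The table lists 4 genes that overlap *Pax5*, none above 47 counts in any mouse, so they held few reads beside the 619 or more of *Pax5*. *Bcl6* and *Ms4a1* each overlap 1 listed gene, with at most 11 and 8 counts.

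*Tnfrsf13c* (ENSMUSG00000068105, chromosome 15, 82105944 to 82108554) encodes the BAFF receptor, which mature B cells need to survive. It was at 0.9454, 1.182 and 0.9005 FPKM in PBS, 3.562, 4.964 and 2.688 in IL-33, and 1.572, 1.59 and 1.538 in IL-33+LM8 mice. The IL-33 mice were widely spread, whereas the IL-33+LM8 mice were close together and not far above PBS. *Tnfrsf13c* rose by 1.89 with IL-33 (log2, SE 0.258, edgeR adjusted p = 0.00069). It fell by 1.25 on the log2 scale with LM8 (SE 0.23, edgeR adjusted p = 0.0067), the only one of the 8 to pass 2-fold in this comparison. Without IL-33 replicate 2 the same log2 fold change was -0.991. Against PBS it was 0.65 (SE 0.194, edgeR adjusted p = 0.042), a call that was lost under several settings, with adjusted p between 0.022 and 0.22 over all that were tried. Its counts, from 127 to 638 per mouse, were the lowest of the 8.

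*Bcl6* (ENSMUSG00000022508, chromosome 16, 23783802 to 23807602), the germinal centre repressor, was at 10.15, 9.651 and 9.68 FPKM in PBS, 7.247, 7.66 and 7.657 in IL-33, and 11.68, 9.811 and 10.43 in IL-33+LM8 mice. All 3 IL-33 mice were below every other mouse, and the PBS and IL-33+LM8 mice overlapped. *Bcl6* fell with IL-33 by 0.39 on the log2 scale (SE 0.0559, edgeR adjusted p = 0.00089), or 1.31-fold in mean FPKM, and rose 1.41-fold between the IL-33 groups (log2 fold change 0.50, SE 0.0754, edgeR adjusted p = 0.0028). IL-33+LM8 and PBS mice differed by 0.13 (95% confidence interval -0.0477 to 0.305, edgeR adjusted p = 0.24). Most markers of the lung's own cells went the same way. The summed FPKM of 5 endothelial markers was 621 to 701 in PBS, 379 to 415 in IL-33 and 586 to 605 in IL-33+LM8 mice, and 4 of the 5 fell with IL-33 while all 5 rose between the IL-33 groups. Of 6 lung epithelial markers, 4 fell with IL-33 and 4 rose between the IL-33 groups, but *Epcam* rose with IL-33, by 0.27 on the log2 scale (edgeR adjusted p = 0.043), and was at -0.27 between the IL-33 groups (edgeR adjusted p = 0.12). The part of these cells in the *Bcl6* result was not tested.

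**Figure D2:**
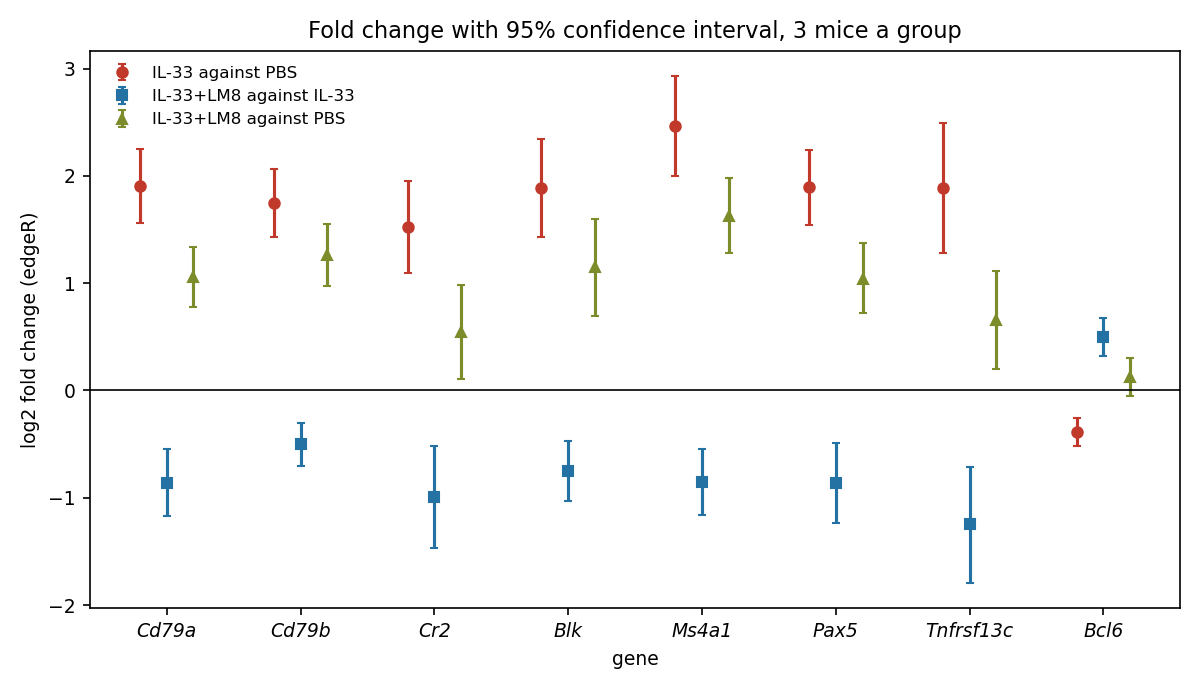
Log2 fold change of each of the 8 genes (vertical axis) in IL-33 against PBS, IL-33+LM8 against IL-33 and IL-33+LM8 against PBS, with bars for the 95% confidence interval from edgeR, 3 mice a group. The 7 B cell genes lie above 0 in IL-33 against PBS and below 0 in IL-33+LM8 against IL-33, and Bcl6 has both signs the other way.

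Set against all genes, many moved with IL-33. Of 16831 genes tested in IL-33 against PBS, 27.4% were called higher and 27.2% lower, and 10.8% were called higher by at least 2-fold, where 7 of the 8 genes were. The groups did not overlap for 7 genes in the higher direction and for *Bcl6* in the lower, against 31.7% of all genes in each direction. Between the IL-33 groups, 13.9% of genes were called lower and 12.6% higher, where 7 of the 8 were lower and *Bcl6* higher. At least 2-fold lower were 3.93% of all genes and 1 of the 8 (0 without IL-33 replicate 2, and 2 when either IL-33 replicate 3 or IL-33+LM8 replicate 1 was dropped), and groups stood apart for 22.0% of genes in the lower and 21.2% in the higher direction. In IL-33+LM8 against PBS, 16.3% were called higher, 5.87% by at least 2-fold, and 23.4% stood above PBS without overlap. The corresponding counts were 6 of the 8, then 5 (*Cd79a*, *Cd79b*, *Blk*, *Ms4a1* and *Pax5*), and 7. The count of 5 was 2 without PBS replicate 3 and 3 without IL-33+LM8 replicate 1. The median log2 fold change of the 8 was 1.89, -0.858 and 1.05 in the 3 comparisons, and that of all genes -0.00534, -0.00624 and 0.00347. These comparisons share mice, so they are not separate evidence, and the set was chosen with earlier results of these data known.

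Mice of a group differed together. IL-33 replicate 2 was the highest of its group for 7 of the 8 genes, and replicate 3 the lowest for the 7 B cell genes. PBS replicate 2 was highest for 6 and IL-33+LM8 replicate 1 for 6. Across genes in general, PBS replicate 3, IL-33 replicate 1 and IL-33+LM8 replicate 3 deviated from their group means in the same way, with correlations across genes of 0.75, 0.8 and 0.79, and each was the most deeply sequenced mouse of its group. With those 3 left out, an alternative chosen after seeing the data, the counts of called genes in IL-33 against PBS stayed at 8, and at least 2-fold at 7. Between the IL-33 groups 4 of the 8 were then called, in place of 8: *Cr2*, *Blk*, *Pax5* and *Tnfrsf13c* kept their direction, at log2 fold changes of -0.97, -0.66, -0.78 and -1.26, with edgeR adjusted p between 0.057 and 0.084 on 2 mice a group. Calls over all genes dropped too, to 850 higher and 1116 lower of 16830 tested, from 2120 and 2339 of 16831. The part of sequencing depth in these differences was not tested.

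The order of the levels within a group changed through *Bcl6* and *Ms4a1*. In PBS mice it ran from *Cd79b* and *Cd79a*, whose values overlapped, through *Bcl6*, then *Blk* and *Ms4a1*, which overlapped, then *Pax5* and *Tnfrsf13c*, which overlapped, to *Cr2*. In IL-33 mice *Cd79b* and *Cd79a* overlapped at the top, *Ms4a1* came next, *Blk* and *Bcl6* overlapped behind it, and *Pax5* and *Tnfrsf13c* overlapped above *Cr2*. In IL-33+LM8 mice *Bcl6* came directly after *Cd79a* again, and each gene stood clear of its neighbour.

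Levels were then set against *Cd79a* within each mouse. *Pax5* differed in its ratio to *Cd79a* by less than the SD of either group compared. *Blk* in IL-33+LM8 mice differed by 0.10 from IL-33 and by 0.11 from PBS mice. These exceed the SD of 0.0796 in IL-33+LM8 mice but not that of 0.185 in IL-33 or 0.246 in PBS mice. The log2 ratio of *Pax5* was -3.54 in PBS, -3.56 in IL-33 and -3.57 in IL-33+LM8 mice, and that of *Blk* -2.41, -2.41 and -2.30, with overlapping mice in all 3 comparisons. For other members some groups stood apart. *Ms4a1* stood 0.57 higher relative to *Cd79a* in IL-33 than in PBS mice and 0.01 higher in IL-33+LM8 than in IL-33 mice, where the groups overlapped. *Cr2* stood lower than in PBS by 0.39 in IL-33 and by 0.53 in IL-33+LM8 mice (differences of -0.39 and -0.53). *Tnfrsf13c* and *Cd79b* went opposite ways between the IL-33 groups, by -0.36 and 0.35, both without overlap. *Bcl6* had the widest shift, with a log2 ratio of -0.34 in PBS, -2.63 in IL-33 and -1.28 in IL-33+LM8 mice. Every ratio whose groups did not overlap had an exact two-sided permutation p of 0.1, the smallest that 3 against 3 allow, and 0.191 after Benjamini-Hochberg adjustment over the 21 ratios tested, so none passed.

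**Figure D3:**
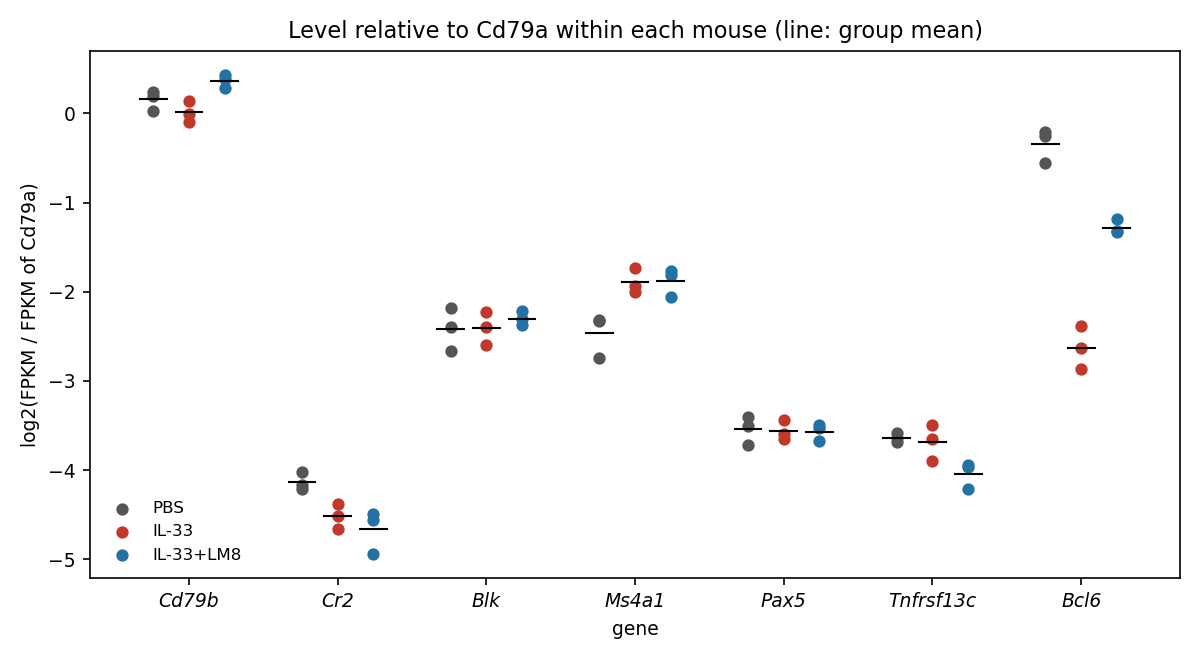
Log2 ratio of the FPKM of 7 genes to that of Cd79a in the same mouse (vertical axis), by group; points are mice and lines group means. Pax5 and Blk lie at nearly one height in the 3 groups, and Bcl6 drops from a mean of -0.34 in PBS to -2.63 in IL-33 mice.

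The genes most like *Cd79a* over the 9 mice were taken as those with the smallest root mean square difference between log2(FPKM + 0.1) profiles, each centred on its own mean. Among the closest were *Pax5* (0.109), *Tnfrsf13b* (0.11), which encodes another receptor for BAFF, *H2-DMb2* (0.126), a chain of the peptide-loading chaperone of antigen presentation, and *C130026I21Rik* (0.127). Of the other members *Blk* ranked 13, *Cd79b* 27, *Tnfrsf13c* 102, *Cr2* 290 and *Ms4a1* 335 among all genes tested, and *Bcl6* 11686. The genes most like *Bcl6* were *Wars* (0.0388), *H6pd* (0.0607), *Slfn5* (0.0629), *Gpx3* (0.0651) and *Gpr146* (0.0686), and the B cell genes came at rank 14878 or later. The likeness is a description over 9 mice in 3 groups.

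Other genes of the B cell receptor also rose with IL-33. Of 19 further genes of the receptor and its co-receptors, 17 rose with IL-33 and 2 fell, with a median log2 fold change of 1.78. For this and the lists below, the shares of all genes called were 27.4% higher and 27.2% lower in IL-33 against PBS. Between the IL-33 groups they were 12.6% higher and 13.9% lower, and in IL-33+LM8 against PBS 16.3% were higher. *Ighm*, the heavy chain of IgM, was at 37.06, 54.21 and 41.21 FPKM in PBS, 666.8, 646.2 and 692.8 in IL-33, and 112.2, 112.0 and 108.5 in IL-33+LM8 mice. Its rise of 3.92 (log2, SE 0.146, edgeR adjusted p = 2e-06) was the largest of the list and larger in value than that of any member, as was its fall of 2.59 between the IL-33 groups (log2 fold change -2.59, SE 0.0614, edgeR adjusted p = 7.9e-06). *Ighm* is read in plasma cells as well as in B cells. *Ighd*, the heavy chain of naive B cells, rose less, by 1.20 (edgeR adjusted p = 0.00055), and its difference of -0.26 between the IL-33 groups did not pass (edgeR adjusted p = 0.32). *Fcer2a*, which encodes the low-affinity IgE receptor, rose by 1.90 and fell by 0.69 on the log2 scale. *Vpreb3*, listed for its role in receptor assembly, ran the other way with -1.13 and 0.84. Between the IL-33 groups 14 of the 19 fell and 2 rose, and 17 of the 19 were called higher in IL-33+LM8 than in PBS mice.

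Of 12 B lineage transcription factors besides *Pax5* and *Bcl6*, 8 rose with IL-33, 1 fell and 3 did not pass. *Spib* rose most, by 2.57 (log2, SE 0.204), and *Pou2af1*, the B cell coactivator of octamer factors, rose by 2.30 (SE 0.0985). *Ebf1*, which acts with PAX5 in B cell commitment but is also read in stromal cells, was not called, at 0.20 (edgeR adjusted p = 0.23). *Foxo1* was lowest, at -0.54 (edgeR adjusted p = 0.0069). Between the IL-33 groups 6 of the 12 fell, *Ikzf3* most, with -1.28, and none rose. *Spi1*, the most abundant of the list, encodes PU.1 of myeloid cells as well as B cells and rose by 2.24.

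The BAFF system did not move as one. Besides *Tnfrsf13c*, 3 of 6 listed genes rose with IL-33, against 27.4% of all genes tested. *Tnfsf13b*, which encodes BAFF itself, rose by 1.05 (log2, SE 0.0637, edgeR adjusted p = 1.4e-05) and did not pass between the IL-33 groups, with a log2 fold change of 0.35 and overlapping mice (edgeR adjusted p = 0.14). The ligand stood 1.42 above PBS in IL-33+LM8 mice (edgeR adjusted p = 0.00087), while its receptor *Tnfrsf13c* stood 0.65 above. *Tnfrsf13b* rose by 1.90 and fell by 0.76. *Tnfsf13*, encoding the related ligand APRIL, was at -0.19 with IL-33 (edgeR adjusted p = 0.11) and rose by 0.47 between the IL-33 groups (edgeR adjusted p = 0.043). *Tnfrsf17*, the receptor of plasma cells, had only 0 to 70 counts per mouse and did not pass in any comparison.

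Of the germinal centre genes besides *Bcl6*, 6 of 10 could be tested. With IL-33, 3 rose (*Mybl1*, *Gcsam* and *Plxnb2*), 2 fell (*Fas* and *Efnb1*) and *S1pr2* did not pass, with a list median of 0.199. *Mybl1*, a cell cycle regulator of germinal centre B cells that other cells also express, rose by 1.13 and fell by 1.39 between the IL-33 groups, whereas *Fas* and *Efnb1* fell with IL-33, at -0.63 and -1.07, and rose between the IL-33 groups, by 0.61 and 0.57. Genes of follicular helper T cells and of the follicle were listed apart. Of 7 listed follicular helper genes 5 could be tested, and 4 of these rose with IL-33. *Pdcd1* rose by 5.24 and *Cxcr5*, the follicle-homing receptor shared with B cells, by 2.17. The median of the T cell markers was 0.471, and which cells carried these transcripts was not tested. *Il21*, the cytokine of follicular helper T cells, was below the filter, with 0, 5 and 0 counts in PBS, 22, 26 and 10 in IL-33, and none in the 3 IL-33+LM8 mice. Of 4 tested genes of follicle stroma and B cell attraction, all rose with IL-33 and 3 fell between the IL-33 groups. *Fcgr2b*, the most abundant of these, is counted among the 19 receptor and co-receptor genes as well. It rose by 3.09 and fell by 1.14 on the log2 scale, as most macrophage markers also rose and fell. *Cxcl13*, the ligand of CXCR5, was at 2.067, 1.817 and 1.919 FPKM in PBS, 32.44, 36.42 and 23.74 in IL-33, and 5.631, 23.61 and 14.2 in IL-33+LM8 mice. It rose by 3.99 with IL-33 (edgeR adjusted p = 4.1e-06), and the wide spread of the IL-33+LM8 mice left a difference of -1.09 from IL-33 that did not pass (edgeR adjusted p = 0.12).

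Plasma cell genes rose with IL-33 in 5 of 7 cases and fell between the IL-33 groups in 4. Among the 5, *Xbp1* rose by only 0.25 with overlapping mice (log2, edgeR adjusted p = 0.049). *Jchain*, which joins IgM and IgA, rose by 1.71 and fell by 1.69, and ended at 0.04 relative to PBS (log2, edgeR adjusted p = 0.81). *Irf4* rose by 2.94 and fell by 0.74, and *Prdm1*, which encodes the plasma cell regulator BLIMP1, did not pass in either comparison. Against PBS, 3 of the 7 were called higher in IL-33+LM8 mice: *Irf4* by 2.21 (edgeR adjusted p = 0.00014), *Derl3* by 2.16 (edgeR adjusted p = 0.0062) and *Xbp1* by 0.43 (edgeR adjusted p = 0.044). The mice overlapped for *Xbp1* here too.

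Markers of other cells moved beside the B cell genes. All 7 neutrophil markers rose with IL-33 and rose again between the IL-33 groups, and their summed FPKM went from 26.3 to 32.9 in PBS through 188 to 211 in IL-33 to 871 to 1020 in IL-33+LM8 mice, an order unlike that of the B cell genes. All 5 tested eosinophil markers rose with IL-33 and fell between the IL-33 groups, as did 5 of 6 macrophage markers, with summed FPKM of 69.9 to 78.4, 331 to 350 and 145 to 160 in the 3 groups. T cell markers rose in 5 of 8 cases with IL-33, with a median of 0.471, and 2 fell between the IL-33 groups. Of 4 tested markers of plasmacytoid dendritic cells, which share some B cell transcripts, 2 rose and 1 fell with IL-33 and none was called between the IL-33 groups. No list had a gene at or under 3 counts throughout. The part of these cells in the level of the B cell genes was not tested.

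**Figure D4:**
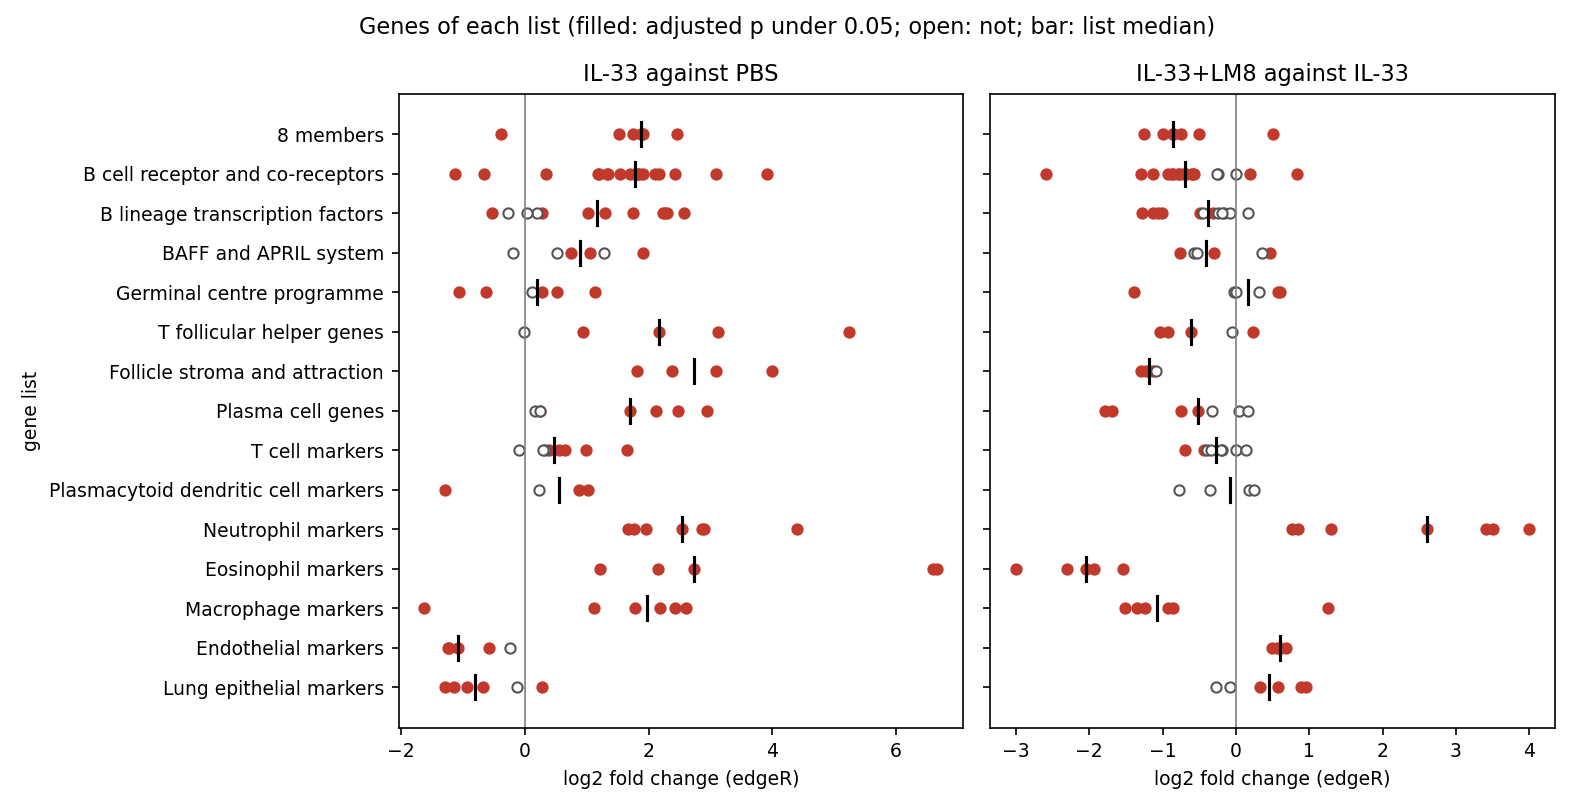
Log2 fold change (horizontal axes) of the tested genes of each list, left for IL-33 against PBS, right for IL-33+LM8 against IL-33; filled points passed an adjusted p under 0.05, open points did not, and bars are list medians. Most B cell receptor genes lie right of 0 in the first panel (median 1.78) and left of 0 in the second (median -0.69), whereas neutrophil markers lie right of 0 in both.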

How the data were processed

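RNA from the lungs of 9 mice was read by paired-end RNA-seq. The authors deposited raw read counts and FPKM per gene for each mouse, made by their sequencing company. The submitters' processing notes name HISAT2 2.0, Bowtie 0.12.2, StringTie 1.3.0 and mm10, but only 578 of 32643 matched genes, and 1 of the 8 members, have the coordinates of the GRCm38 annotation, so the table's coordinates are given as they stand and the RefSeq promoters keep their own build. Whether counting used strand is not given in the sources used here.

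Counts were tested with edgeR 4.0.16 (R 4.3.3; quasi-likelihood, TMM) on the 6 mice of each comparison, keeping genes whose FPKM averaged 0.5 or more across the 9 mice and that had any read in those 6 (16831 genes, or 16829 in IL-33+LM8 against PBS). The scripts were tested on simulated data. DESeq2 1.42.0, limma 3.58.1 on log2(FPKM + 1) and log2(FPKM + 0.1), other scalings and filters, a replicate block and leaving out mice were alternatives. Exact permutation tests used SciPy 1.17.1 on Python 3.11.15. Whether mice shared a litter or cage is not given in the sources used here, so p-values measure only the spread between these samples.

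The text names the 8 members and draws on each list's genes with extreme fold changes, its most abundant gene and a set of B cell, BAFF, germinal centre and plasma cell genes. *Plxnb2*, *Gcsam* and *Fas* were added so that a count is complete. Some listed genes are counted but not reported by name here. Members and lists were chosen with earlier results of these data known.

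Replicate numbers were checked over genes averaging 5 FPKM or more. Same-numbered IL-33+LM8 and PBS mice deviated from their group means together, with correlations of 0.41 to 0.79, against -0.56 to 0.29 for different numbers. The 0.79 belonged to the replicate 3 mice, which also went with IL-33 replicate 1 (0.75 and 0.8). Same-numbered mice did not deviate together in IL-33 against PBS (-0.52 to 0.34) or IL-33+LM8 against IL-33 (-0.54 to 0.37). The labels do not say that numbers pair mice, so the main test left mice unpaired and the replicate block was an alternative.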

Additional observations from a re-analysis of the deposited data

How the results depend on the processing

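Over the alternatives for the 8 genes in 3 comparisons, 369 values kept their direction and call, 2 became called, 13 lost their call and none changed sign. The calls gained were *Cr2* in IL-33+LM8 against PBS. *Tnfrsf13c* in that comparison lost its call with every gene counted above 0, upper-quartile factors, one fit of all 9 mice, and without PBS replicate 1 or 3 or any single IL-33+LM8 mouse, and its log2 fold change without 1 mouse was 0.569 to 0.787. The count of genes at least 2-fold lower in IL-33+LM8 against IL-33, 1 as reported, was 0 with limma on log2(FPKM + 1) and 0 to 2 with 1 mouse left out: 0 without IL-33 replicate 2, and 2, with *Cr2* added, without IL-33 replicate 3 or without replicate 1 of the IL-33+LM8 mice. In IL-33+LM8 against PBS the count at least 2-fold higher, 5 as reported, was 2 with limma on log2(FPKM + 1), where the pseudocount shrinks low genes, and 2 to 5 with 1 mouse left out: 2 without PBS replicate 3, while 3 were left when IL-33+LM8 replicate 1 was dropped. With the deepest mouse of each group left out, chosen after seeing the data, the IL-33+LM8 comparison with IL-33 called 4 genes in place of 8, and 0 at least 2-fold. Over all genes it called 850 higher and 1116 lower, in place of 2120 and 2339. In that setting *Tnfrsf13c* also lost its call against PBS, with an edgeR adjusted p of 0.22. Scaling moved the median of all genes by less than 0.1 on the log2 scale.

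With the replicate block, the members called stayed at 8 for IL-33 and PBS, 8 between the IL-33 groups and 6 for IL-33+LM8 and PBS, and those at least 2-fold at 7, 1 and 5, so it changed no call. Over all genes the block gave 4182 higher and 4074 lower, against 4616 and 4577, in IL-33 against PBS, and 1573 and 1820, against 2120 and 2339, between the IL-33 groups. In IL-33+LM8 against PBS, where same-numbered mice deviated together, the block gave more calls, 3388 higher and 3034 lower against 2741 and 2256. No label pairs the mice by number in any comparison. The 8 genes had 127 counts or more in every mouse, whereas *Rgs13* and *Il21* were too low to test.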
